A study of Mus musculus with 2 samples.

Results

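Tcf1 ChIP-seq peaks around 9 genes of the cytotoxic effector program were examined in naïve CD8+ T cells: Gzma, Gzmb, Gzmk and Gzmm, which encode granzymes, Prf1, which encodes perforin, and Fasl, Nkg7, Ifng and Ccl5. A peak belonged to a gene when its summit lay in the gene body or within 50 kb of either end (mm9, GENCODE vM1 annotation). The windows held 42 of the 22286 deposited peaks, and 41 of these met the study's high-confidence limits (4 times the control level or more, p below 1e-05, q below 0.05), against 85.4% of the whole list. The 41 are distinct peaks. One of them lay in the windows of both Gzma and Gzmk.

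The series holds 1 library of wild-type (WT) cells and 1 library of Tcf1-deficient cells, both made with an anti-Tcf1 antiserum from splenic CD8+ T cells. The cells of both were sorted as GFP+, TCRbeta+, CD62Lhi and CD44lo-med. The series' labels give mice with hCD2-Cre, Rosa26-lsl-GFP and Tcf1/Lef1 alleles that were either wild type or floxed, and the genotype Tcf1-/-Lef1-/- for the control, so both groups share the Cre, which acts mainly in mature T cells, and the reporter, whose GFP marks cells in which Cre was active. The study's methods instead describe Cd4-Cre+ Tcf7 fl/fl control mice, in which Cre acts from the thymocyte stage and Lef1 is intact, and the sources do not settle which mice were used. Per the study's methods the mice were young adults of both sexes, and which of them went into these libraries is not given in the sources used here. A peak list holds no transcripts, so neither the deletion nor the sorted cell type could be checked against marker genes. Both libraries are bulk samples of sorted cells, and whether animals were pooled is not stated in the sources used here. After removal of duplicates the WT library held 36938606 fragments and the Tcf1-deficient library 27625250. With 1 library per group there was no replicate check. The 95% intervals below are Poisson intervals for the pileup and fold of a single peak and exact binomial intervals for shares. They cover counting error only, and those of the folds take the control level as exact. Intervals of a median are order-statistic intervals, which reflect the spread between peaks.

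Tcf1, encoded by Tcf7, is an HMG-box factor that binds a short A/T-rich core in DNA and is abundant in naïve T cells. Cytotoxic CD8+ T cells kill by releasing granules, in which perforin forms pores that let granzymes, a family of serine proteases, into the target cell, or by engaging Fas with Fas ligand. Activated cells also secrete interferon-γ and chemokines such as CCL5. These genes are silent or poised in naïve cells and come on after activation. Transcription was not measured in these libraries, so silence of the genes here rests on general knowledge of the cell type.

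Which bases lay under the summits is shown first, as 121 bases of the mm9 reference around each summit, on the forward strand of the chromosome and from 5′ to 3′. The first set was chosen because the 7-base Tcf/Lef core ATCAAAG lay within 60 bases of the summit. Capitals mark the core, which reads CTTTGAT where it lies on the reverse strand.
Ifng, 21.8 kb upstream (chr10:117856245-117856365): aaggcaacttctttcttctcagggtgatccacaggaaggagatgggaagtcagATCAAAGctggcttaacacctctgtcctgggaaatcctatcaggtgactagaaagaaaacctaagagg
Fasl, 16.1 kb upstream (chr1:163734665-163734785): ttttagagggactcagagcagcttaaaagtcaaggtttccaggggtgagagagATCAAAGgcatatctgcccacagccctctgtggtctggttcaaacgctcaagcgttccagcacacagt
Gzmb, 34.0 kb upstream (chr14:56915016-56915136): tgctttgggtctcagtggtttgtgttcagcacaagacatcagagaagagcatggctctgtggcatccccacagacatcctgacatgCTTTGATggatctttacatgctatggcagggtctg
Gzmb, 22.4 kb upstream (chr14:56903395-56903515): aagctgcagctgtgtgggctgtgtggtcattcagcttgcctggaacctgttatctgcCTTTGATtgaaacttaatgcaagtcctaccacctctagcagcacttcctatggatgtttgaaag
Gzmb, 25.8 kb upstream (chr14:56906819-56906939): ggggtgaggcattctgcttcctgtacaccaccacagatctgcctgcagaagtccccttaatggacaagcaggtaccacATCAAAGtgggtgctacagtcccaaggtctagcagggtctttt
Gzma, 6.09 kb past the gene's end (chr13:113877885-113878005): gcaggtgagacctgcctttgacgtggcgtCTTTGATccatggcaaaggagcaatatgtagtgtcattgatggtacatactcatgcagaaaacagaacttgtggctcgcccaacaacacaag
Between Gzma and Gzmk (chr13:113925116-113925236): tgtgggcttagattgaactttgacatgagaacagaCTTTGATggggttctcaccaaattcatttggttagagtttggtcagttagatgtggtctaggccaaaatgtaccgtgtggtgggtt

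In the Ifng and Fasl sequences of this set the center of the core was 4 bases from the summit, and at Gzmb 22.4 kb upstream it was at the summit itself. One further Fasl peak, 21.1 kb upstream, carried the core 79 bases from its summit, outside the printed stretch. The second set holds every peak with a fold enrichment of at least 20 that lacked the exact core within 100 bases of the summit. Capitals mark an AP-1 core (TGAGTCA) in the second Fasl stretch.
Fasl, 1.45 kb past the gene's end (chr1:163709314-163709434): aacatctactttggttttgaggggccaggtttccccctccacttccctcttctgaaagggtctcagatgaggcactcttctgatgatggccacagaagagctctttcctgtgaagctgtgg
Fasl, 13.9 kb past the gene's end (chr1:163696888-163697008): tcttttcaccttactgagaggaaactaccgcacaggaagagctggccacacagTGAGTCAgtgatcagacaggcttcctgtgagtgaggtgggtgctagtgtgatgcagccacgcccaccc
Prf1, 2.08 kb past the gene's end (chr10:60769030-60769150): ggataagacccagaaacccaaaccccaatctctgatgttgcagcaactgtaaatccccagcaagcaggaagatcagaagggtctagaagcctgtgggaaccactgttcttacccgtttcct
Prf1, intron (chr10:60763964-60764084): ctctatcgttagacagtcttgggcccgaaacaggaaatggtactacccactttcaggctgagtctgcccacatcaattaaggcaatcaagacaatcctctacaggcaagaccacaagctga
Nkg7, 0.563 kb past the gene's end (chr7:50694119-50694239): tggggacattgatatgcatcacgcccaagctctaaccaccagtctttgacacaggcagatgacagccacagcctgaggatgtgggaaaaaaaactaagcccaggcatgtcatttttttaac

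All 9 genes had at least 1 high-confidence peak in their window, as did 66.5% of the 22350 protein-coding genes on the numbered chromosomes and X. The number per gene was 11 for Fasl, 7 for Ifng, 6 for Gzmb, 4 each for Gzma, Prf1 and Ccl5, 3 for Gzmm, 2 for Nkg7 and 1 for Gzmk. The median over the 9 genes was 4, and over all protein-coding genes it was 1 (interquartile range 0 to 3). Of all genes, 98.7% had fewer peaks than Fasl, 92.9% fewer than Ifng and 89.4% fewer than Gzmb, while 49.5% had more than Gzmk. The windows were of like length, from 101 kb for Nkg7 to 154 kb for Gzmk, against a median of 115 kb for all genes.

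**Figure D1:**
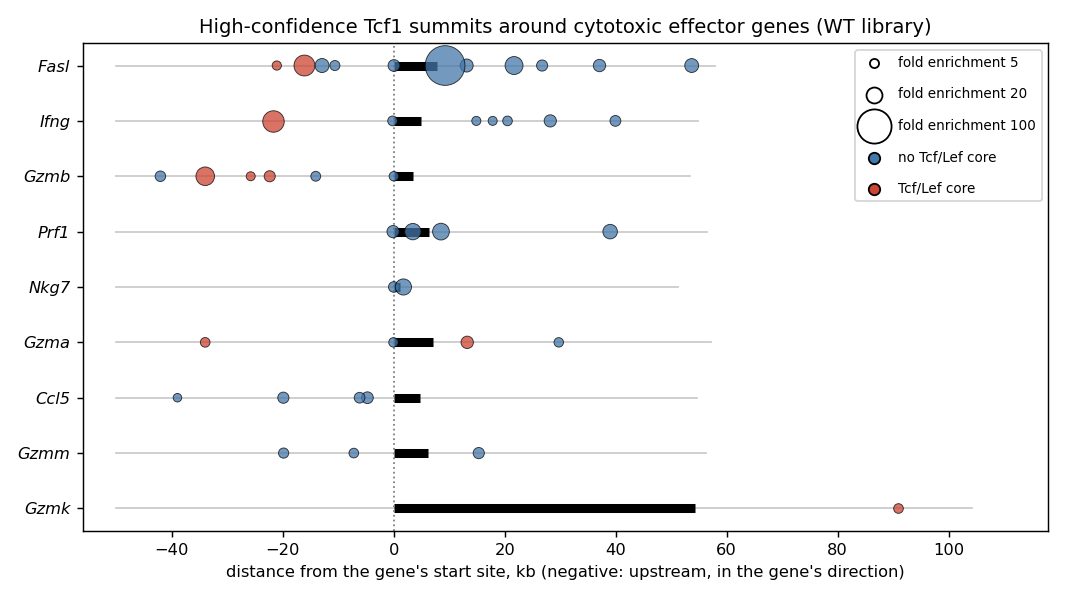
Position of each high-confidence Tcf1 summit relative to the start site of its gene in kb (x axis, negative is upstream) for the 9 genes (rows, ordered by their largest fold enrichment). Black bars are gene bodies, grey lines the searched windows, circle area grows with fold enrichment, and red circles hold the Tcf/Lef core. Fasl carries 11 summits on both sides of the gene, and the 6 of Gzmb lie at the start site or upstream of it.

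Fold enrichment here is the WT pileup (fragments over the summit) plus 1, divided by the local control level plus 1, where the control level comes from the Tcf1-deficient library and has a genome-wide floor of 5.42 fragments. The 41 peaks had fold enrichments from 4.13 to 136, with a median of 8.57 (order-statistic interval 6.56 to 11.1), and pileups from 28 to 874. The median of all 19042 high-confidence peaks was 6.86. The control level was at its floor for 32 of the 41 peaks (78.0%), against 86.3% of all high-confidence peaks, and the other 9 had levels from 6.02 to 7.35. The fold intervals of 8 of the 41 peaks reached below the minimum of 4, among them those at the start sites of Gzma and Gzmb.

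Ordered by their largest peak, the genes ran from Fasl at a fold enrichment of 136 (127 to 146) through Ifng at 38.2 (33.6 to 43.3), Gzmb at 28.0 (24.5 to 31.8), Prf1 at 22.3 (18.8 to 26.2) and Nkg7 at 20.6 (17.2 to 24.4) to Gzma at 11.2 (8.80 to 14.1), Ccl5 at 9.82 (7.82 to 12.2), Gzmm at 8.73 (6.61 to 11.3) and Gzmk at 5.92 (4.21 to 8.10). The fold intervals of Fasl, Ifng and Gzmb did not overlap with each other, but they leave out the counting error of the control level. The pileups of Ifng, 244 (214 to 277), and Gzmb, 233 (204 to 265), did overlap. The control levels were 5.42 at Ifng and 7.35 at Gzmb. The fold intervals of Gzmb and Prf1, of Prf1 and Nkg7, and of each pair of neighbours from Gzma to Gzmk did overlap. These neighbours were not separated by their counting error. The intervals of Nkg7 and Gzma did not overlap. A peak with a fold enrichment of at least 20 was present in 5 of the 9 windows, against 12.2% of all protein-coding genes.

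**Figure D2:**
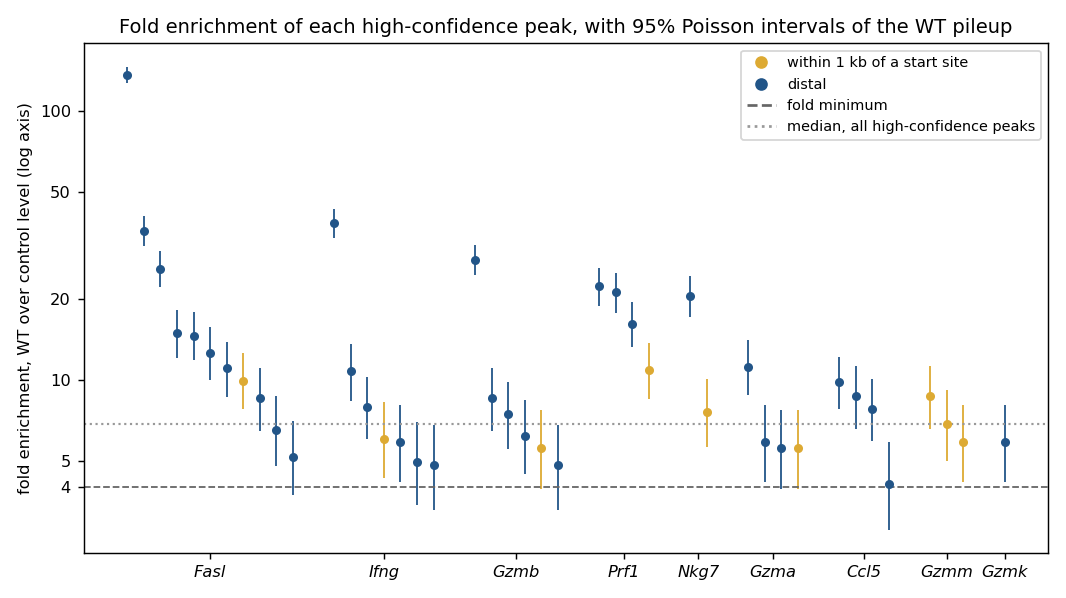
Fold enrichment (y axis, log scale) of every high-confidence peak, grouped by gene on the x axis and sorted within it, with bars for the 95% Poisson interval of the WT pileup. The peak shared by Gzma and Gzmk is drawn for both. Yellow points lie within 1 kb of a start site of any gene and blue points are distal, the dashed line is the fold minimum of 4, and the dotted line is the median of all high-confidence peaks, 6.86. The 3 Gzmm points and the promoter points of Gzma, Gzmb and Ifng sit near the dotted line, while the distal Fasl peak at 136 stands above all others.

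Among the granule genes, Prf1 (ENSMUSG00000037202.5, chromosome 10, 60760584 to 60767011, plus strand) had strong peaks close to the gene and no match to the Tcf/Lef core in any of its 4 peaks. The peak past its 3′ end (60768753 to 60769393) had a pileup of 142 (120 to 167) against a control level of 5.42, a fold enrichment of 22.3. An intron peak 3.44 kb inside the gene (60763713 to 60764332) had a pileup of 135 and a fold enrichment of 21.2 (17.8 to 25.1), not separated from the first by counting error. The promoter peak (60759878 to 60760674) had its summit 0.115 kb upstream of the start site and a fold enrichment of 10.9 (8.52 to 13.8), below the interval of the intron peak. The last peak (60799369 to 60799826, fold enrichment 16.2) lay 32.6 kb past the gene's end in an intron of X99384, and for it, as for the peak next to the gene's end, the nearest protein-coding start site was that of the annotated gene Rpl27a-ps1.

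Gzmb (ENSMUSG00000015437.4, chromosome 14, 56877693 to 56881097, minus strand) encodes granzyme B, a protease that activates caspases in target cells. Its largest peak was intergenic, 34.0 kb upstream (56914704 to 56916083), with a pileup of 233 (204 to 265) against a control level of 7.35, a fold enrichment of 28.0 and a width of 1380 bp. A peak closer in, 22.4 kb upstream (56902527 to 56903765), had a fold enrichment of 8.57 (6.48 to 11.1) over a width of 1239 bp, and one farther out, 42.1 kb upstream, had 7.48 (5.54 to 9.89). The summit at the start site (56880953 to 56881313) lay 18 bp inside the 5′ UTR and had a pileup of 35, a fold enrichment of 5.61 (3.95 to 7.74). The remaining peaks, 14.1 and 25.8 kb upstream, had fold enrichments of 6.23 and 4.83. The core was found at 3 of the 6 peaks, 22.4, 25.8 and 34.0 kb upstream, and all 6 had the Gzmb start site as their nearest protein-coding one.

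Past the 3′ end of Gzmb lie 6 further granzyme genes, Gzmc, Gzmd, Gzme, Gzmf, Gzmg and Gzmn, spread over 117 kb. No high-confidence summit fell among them or between them and Gzmb, and on that side the next one lay 345 kb from Gzmb. The 3 summits in the window of Gzmc, the only one of these genes with any, were all among those of Gzmb. The deposited list holds called peaks only, so fragments below the peak caller's limit in this stretch were not analysed here.

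Gzma (ENSMUSG00000023132.6, chromosome 13, 113884033 to 113891187, minus strand), which encodes the trypsin-like granzyme A, had weaker peaks. The largest (113877637 to 113878219) lay 6.09 kb past the gene's end within an intron of Cdc20b and carried the core 28 bases from the summit. Its pileup was 71 (55.5 to 89.6) and its fold enrichment 11.2. The promoter peak (113891118 to 113891479) had its summit 50 bp upstream of the start site, a pileup of 35 and a fold enrichment of 5.61 (3.95 to 7.74), the same values as at the Gzmb start site. It held no Tcf/Lef core, but a Runx core (TGTGGTT) lay at its summit. Another peak in an intron of Cdc20b (113861302 to 113861628) also had a fold enrichment of 5.61, and its nearest protein-coding start site was that of Gpx8.

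The fourth Gzma peak (113925033 to 113925330) lay 34.0 kb upstream of Gzma and 36.6 kb past the 3′ end of Gzmk (ENSMUSG00000042385.8, 113961816 to 114016116, minus strand), a neighbouring granzyme gene. It carried the core, had a pileup of 37 (26.1 to 51.0) and a fold enrichment of 5.92, and was nearest the start site of Gm9848. It was the only high-confidence peak in the Gzmk window, so Gzmk had none of its own within or upstream of the gene.

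Gzmm (ENSMUSG00000054206.2, chromosome 10, 79151765 to 79158006, plus strand) encodes granzyme M and had 3 peaks in its window, each at the start site of another gene. The nearest start sites were those of Bsg, at 22 bp, Cdc34, at 0.379 kb, and Gm16517, at 0.243 kb, with fold enrichments of 8.73 (6.61 to 11.3), 5.92 (4.21 to 8.10) and 6.86 (5.0 to 9.18). The Bsg and Cdc34 summits were GC-rich, with 73.6% and 71.6% G or C within 100 bp, against a median of 48.3% for the 41 peaks. None was nearest to Gzmm, whose window held 7 other protein-coding genes.

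Nkg7 (ENSMUSG00000004612.7, chromosome 7, 50692443 to 50693616, plus strand), a granule membrane protein needed for full degranulation, is a short gene with a peak at each end. The promoter peak (50691940 to 50692643) had its summit 10 bp inside the 5′ UTR, a pileup of 48 (35.4 to 63.6) and a fold enrichment of 7.63 (5.67 to 10.1). The peak past the 3′ end (50693774 to 50694567) had a pileup of 131 (110 to 155) and a fold enrichment of 20.6, above the interval of the promoter peak. The promoter peak held the 1 T-box core (AGGTGTG) found among all 41 peaks.

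Fasl (ENSMUSG00000000817.8, chromosome 1, 163710820 to 163718626, minus strand), which encodes the ligand of the death receptor Fas, had the densest window, with 10.2 peaks per 100 kb, against a median of 0.973 for all protein-coding genes. Its 11 high-confidence summits spread over 74.8 kb, with 4 upstream, 1 at the start site and 6 past the 3′ end, and all had Fasl as their nearest protein-coding start site. The peak 1.45 kb past the gene's end (163708929 to 163709785) had a pileup of 874 (817 to 934) against a control level at the floor, and its fold enrichment of 136 ranked 2 of the 22286 deposited peaks. The next ones were 16.1 kb upstream (163734369 to 163735392), with a pileup of 251 (221 to 284) and a fold enrichment of 35.9, and 13.9 kb past the end (163695941 to 163697556), with a pileup of 165 (141 to 192) and a fold enrichment of 25.9. The peak at the start site, 39 bp inside the 5′ UTR, had a fold enrichment of 9.98 (7.79 to 12.6). The other 7 peaks ranged from 5.20 to 15.0. The core was found at 2 of the 11, both upstream, and the strongest peak lacked it.

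At the secreted factors the pattern differed from gene to gene. Ifng (ENSMUSG00000055170.3, chromosome 10, 117878103 to 117882948, plus strand) encodes interferon-γ and was the only protein-coding gene in its window. Its largest peak lay 21.8 kb upstream (117855741 to 117856704), with a pileup of 244 (214 to 277), a fold enrichment of 38.2 and the core 4 bases from the summit. The peak at the start site, 0.207 kb upstream, had a pileup of 38 and a fold enrichment of 6.08 (4.35 to 8.28). The 5 peaks past the 3′ end ranged from 4.83 to 10.8, the largest 23.4 kb past the gene's end (117906036 to 117906613) and the next, with 7.98, 35.1 kb past it. None of these 5 held the core, while 3 held a Runx core.

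Ccl5 (ENSMUSG00000035042.2, chromosome 11, 83339280 to 83344020, minus strand) encodes a chemokine that attracts T cells and monocytes. Its 4 peaks were all upstream, and none lay within 1 kb of its start site. The nearest (83348139 to 83348993), 4.75 kb upstream, had a pileup of 81 (64.3 to 101) and a fold enrichment of 9.82, and the next (83350032 to 83350886), at 6.16 kb, had 7.81 (5.96 to 10.1). The peak at 19.9 kb (83363641 to 83364197) had a fold enrichment of 8.73, and the intervals of these 3 overlapped. The one at 39.0 kb (83382864 to 83383144) had a fold enrichment of 4.13 (2.79 to 5.91), the lowest of the 41, and was nearest the start site of Ccl9. None carried the Tcf/Lef core, and 2 carried a Runx core.

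Across the genes, 6 of 9 had a high-confidence peak within 1 kb of an own start site (Gzma, Gzmb, Prf1, Fasl, Nkg7 and Ifng), against 32.8% of all protein-coding genes. These 6 peaks had fold enrichments from 5.61 to 10.9. In each of the 6 genes the largest peak of the window lay elsewhere, and its fold interval did not overlap that of the promoter peak in any of them. The same held for 35.6% of the 7327 protein-coding genes with a peak at an own start site. The 6 genes had 2 to 11 peaks in their windows, and a gene with more peaks has more chances of a larger one elsewhere. Counting the 3 near Gzmm, which belong to other genes, 9 of the 41 peaks were in promoters (22.0%, 10.6 to 37.6), against 39.6% of all high-confidence peaks. The promoter share depended on the window: within 10 kb of the genes, which left 16 peaks, it was 50%. Narrower windows lie closer to start sites, so the direction against all peaks depends on the width chosen. The 32 distal peaks had a median fold enrichment of 9.27 (order-statistic interval 6.56 to 15.0), against 7.17 for all 11495 distal ones on the list.

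**Figure D3:**
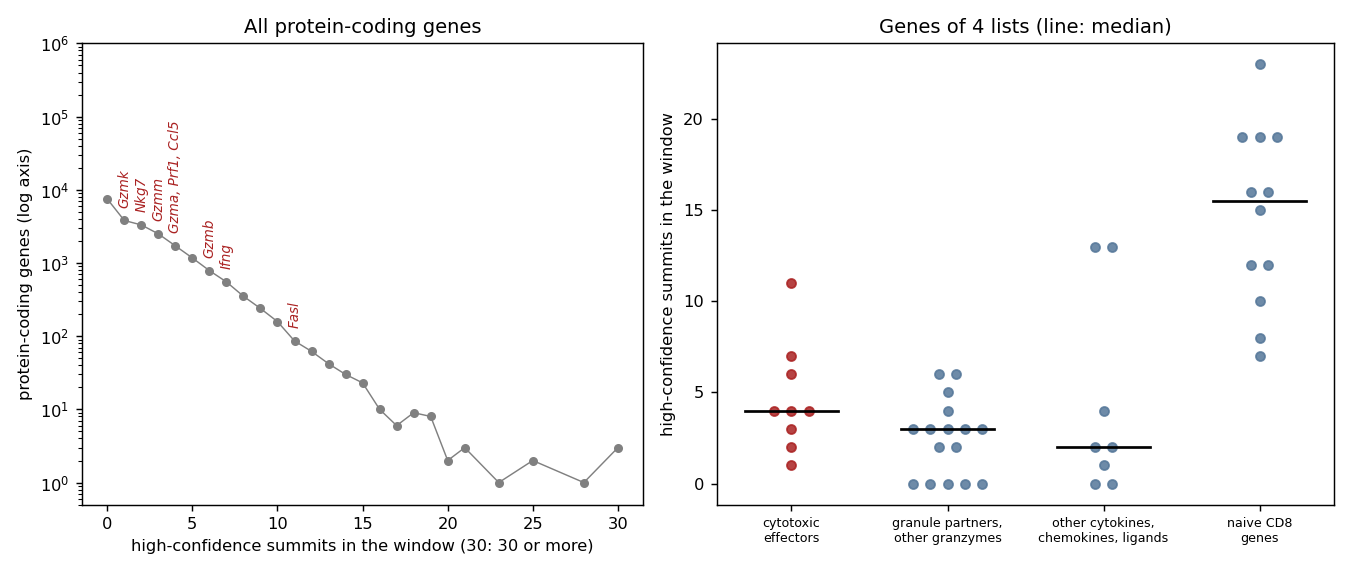
Left, number of protein-coding genes (y axis, log scale) by the number of high-confidence summits in their window (x axis), with the 9 genes named above the value each belongs to, the last point standing for 30 or more, and counts that no gene had left out. Right, the same number for each gene of 4 lists, with the median as a line: 4 for the cytotoxic effector genes, 3 for granule partners and other granzymes, 2 for other cytokines, chemokines and death ligands, and 15.5 for genes expressed in naïve CD8+ T cells.

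Other genes of the same program were described by the same windows. Of 16 genes for granule partners and other granzymes, 11 had a high-confidence peak (68.8%, against 66.5% of all protein-coding genes), 5 had one at an own start site (31.2%, against 32.8%) and 1 had a peak with a fold enrichment of at least 20 (6.25%, against 12.2%). The median number of peaks was 3, or 2.34 per 100 kb, against 1 and 0.973 for all protein-coding genes. The strong peak was at Lamp1, which encodes a granule membrane protein, with 35.5. Srgn, the proteoglycan core of the granule, and Rab27a, a GTPase of granule docking, had the most, 6 each, and Gzmd, Gzme, Gzmf, Gzmg and Gzmn had 0. Of 8 other effector cytokine, chemokine and death ligand genes, 6 had a peak (75%, against 66.5% of all protein-coding genes), 2 had one at an own start site (25%, against 32.8%) and 0 had a peak of at least 20, against 12.2%. The median number of peaks was 2, or 1.96 per 100 kb. Tnf and Lta, which are neighbours with overlapping windows, had 13 each. Ccl3 and Ccl4, also neighbours with overlapping windows, had 2 each, and the whole list held 20 distinct peaks. Tnfsf10, the gene of the death ligand TRAIL, and Csf2, the gene of GM-CSF, had 0.

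The 12 genes expressed in naïve CD8+ T cells, which include Tcf7 and Lef1, had between 7 and 23 peaks each. Cd8a, with 16, and Cd8b1, with 19, are neighbours with overlapping windows, so shared peaks were counted for both. Bach2, a repressor of effector genes, had the most by number at 23, but in a long window, with 5.14 per 100 kb, while Cd8b1, which encodes a chain of the CD8 coreceptor, was highest per 100 kb at 16.6. All 12 had a peak at an own start site, and 10 had a peak with a fold enrichment of at least 20. Since the windows differed in length, the lists were compared per 100 kb of window, where the median was 3.76 for the 9 cytotoxic effector genes and 9.22 for the 12. The ranges, 0.648 to 10.2 and 2.72 to 16.6, overlapped, with 7 of the 9 genes inside the range of the 12 and only Nkg7 at 1.98 and Gzmk at 0.648 below it. The median fold enrichment of the peaks themselves was alike, 8.57 over the 41 peaks and 8.41 over the 160 peaks of the naïve genes. No test between the lists was run, since peaks of 1 library are not replicates and the lists were chosen with results known.

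Exact copies of 5 short cores (7 bases each) were looked for within 100 bp of each summit, in either orientation, with windows of the same length 2 kb to each side as background. The Tcf/Lef core was found at 8 of the 41 peaks (19.5%, 8.82 to 34.9), against 10.2% of all high-confidence peaks and 7.32% of the 82 flanking windows of the 41. Within 10 kb of the genes the share was 6.25% of 16 peaks, below that of all high-confidence peaks. With so few peaks, and no interval computed for them, the direction was not settled. The core read backwards (GAAACTA), a control with the same base composition, was found at 4 of the 41 (9.76%, 2.72 to 23.1), against 2.40% of all high-confidence peaks, which lay below this interval. The intervals of the core and of its reversed form overlapped, so an excess of the core over this control was not separated from counting error. With each peak credited to the gene of the nearer start site, the 8 belonged to 4 genes, with 3 at Gzmb, 2 at Gzma, 2 at Fasl and 1 at Ifng. Of the 2 at Gzma, 1 also lay in the Gzmk window. All 8 were distal, so the share among distal peaks was 25% (11.5 to 43.4), against 13.5% of all distal high-confidence peaks. In these 8 the core was 0 to 79 bases from the summit, with a median of 21.5. Their fold enrichments ran from 4.83 to 38.2, with a median of 9.89, against 8.57 for the 33 peaks without the core. A fold enrichment of at least 20 was reached by 8 of the 41 peaks (19.5%, 8.82 to 34.9), against 7.98% of all high-confidence peaks. Of these 8, 3 carried the core (37.5%, 8.52 to 75.5), and this interval held the share among all peaks of that strength, 20.6%.

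The Runx core, bound by factors that include the CD8 lineage regulator Runx3, was found at 8 of the 41 peaks (19.5%, 8.82 to 34.9), against 15.5% of all high-confidence peaks and 2.44% of the flanks of the 41. They comprised 3 at Ifng, 2 at Ccl5 and 1 each at Gzma, Gzmb and Fasl. The Fasl peak 21.1 kb upstream was the only 1 of the 41 with both the Tcf/Lef and the Runx core (2.44%), as had 1.45% of all high-confidence peaks. The AP-1 core was found at 2 of the 41 peaks, at Fasl and Ifng (4.88%, against 4.67% of all high-confidence peaks). The T-box core, which the effector factors T-bet and Eomes bind, was found at 1 (2.44%, against 5.18% of all high-confidence peaks and 6.10% of the flanks of the 41). The ETS core (CGGAAGT) was found at 0 of the 41, for which the interval reached 8.60%, against 6.93% of all high-confidence peaks. Of the 41 peaks, 32 were distal, and among all distal high-confidence peaks the share was 2.75%. A match is a description of the letters, and no binding of these other factors was measured. The intervals of all 5 cores held the share of all high-confidence peaks.

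**Figure D4:**
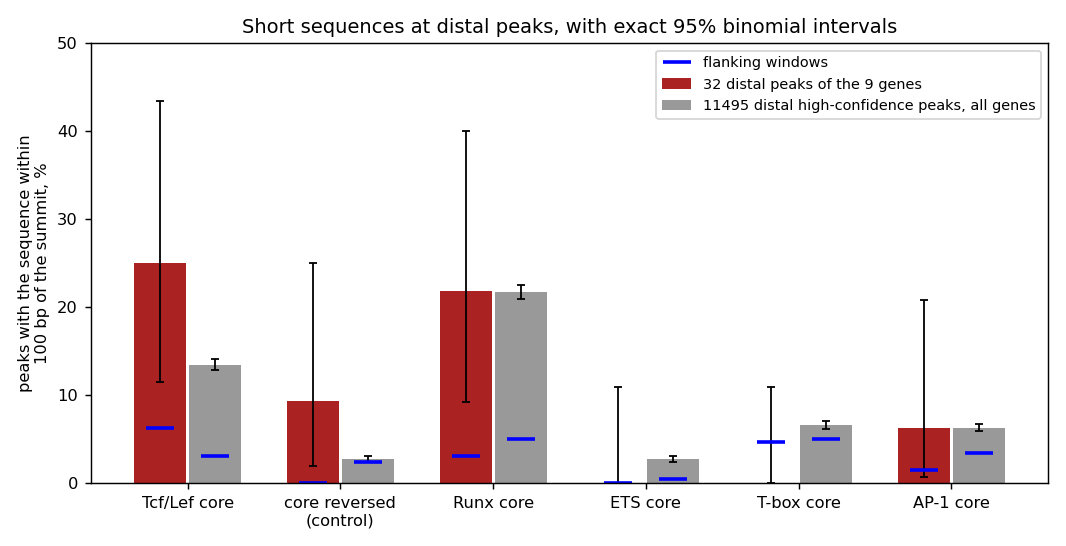
Percent of distal peaks with an exact copy of each sequence within 100 bp of the summit (y axis), for the 32 distal peaks of the 9 genes (red) and all 11495 distal high-confidence peaks (grey). Black bars are exact 95% binomial intervals and blue dashes the share in flanking windows. The Tcf/Lef core was at 25% and 13.5%, the Runx core at 21.9% and 21.7%, and the red intervals are wide.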

How the data were processed

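The authors aligned reads to mm9 with Bowtie2 (2.2.5 in the submitters' processing notes) and called peaks with MACS2 (version 2.1.1.20160309 per the file headers) in paired-end mode, with the WT library as treatment, the Tcf1-deficient library as control and 1 fragment kept per position. The deposited signal column (pileup) is the unscaled number of WT fragments over the summit. The deposited fold enrichment is a ratio with a pseudocount of 1. The deposited −log10 p and −log10 q compare these 2 libraries, not the genotypes. The header says that q was not calculated, but all 22286 values were positive.

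The control level was computed back as (pileup + 1)/fold enrichment − 1. At its floor a high-confidence peak needed a pileup of 25. Gene bodies, transcripts and start sites came from GENCODE vM1 and sequence from NCBIM37, which is mm9. Distances are from the 5′-most annotated start, promoters reach 1 kb to each side of any transcript start, and percentages of genes refer to the same windows around all protein-coding genes. Python 3.11.15, pysam 0.24.0 and scipy 1.17.1 were used, and the counting and motif search were tested on simulated data. No replicate test was possible.

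The members and gene lists were chosen with earlier results of these data known. All 9 genes are named. Every high-confidence peak is given for genes with up to 5, and the 3 largest and any promoter peak for the others, and further peaks are named for their sequence or place. Within the other lists the 2 genes with the most peaks and those with 0 are named. Lamp1, Gzmc, Ccl3, Ccl4 and Cd8a were added after their values were seen.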

Additional observations from a re-analysis of the deposited data

Results flagged for a closer look

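One deposited peak of the 42 entered none of the comparisons above because it fell under the fold minimum. It lay 32.3 kb past the 3′ end of Fasl (chromosome 1, 163678454 to 163678677) with a pileup of 24 (95% Poisson interval 15.4 to 35.7) against a control level of 5.42, a fold enrichment of 3.90 (2.55 to 5.72), so its side of the minimum of 4 was within counting error. The peak just inside the minimum was the one 39.0 kb upstream of Ccl5, with 4.13.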

How the results depend on the processing

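Of 53 values of the 5 summary results under their alternatives, 46 stayed within 1.5 times the count or within the interval, and 7 moved. The number of peaks was 41, but 22 at a fold minimum of 8, 16 with windows of 10 kb and 24 with the gene body and 50 kb upstream only, which follows from fewer peaks or bases entering. Raising the fold minimum to 8 also took the median fold from 8.57 to 13.6. With windows of 10 kb, which left 16 peaks, the promoter share was 50%, against 39.6% of all high-confidence peaks. The share with the core was 6.25%, against their 10.2%. Both lay on the other side of all peaks than in windows of 50 kb. No interval was computed for the 16 peaks, and narrower windows lie closer to start sites, so no change of direction was established. In the windows of 50 kb, with any 1 of the 7 bases free the core share was 68.3%, against 56.5% of all high-confidence peaks. At a fold minimum of 8, 8 of the 9 genes had a peak, and Gzmk had 0. Over all protein-coding genes the largest fold enrichment in the window had a median of 6.86, below this minimum. Their exact share with a peak at this minimum was not computed. Where the nearest protein-coding start site had to be that of the gene itself, 7 of 9 had a peak, without Gzmk and Gzmm. No share of all protein-coding genes was computed under this rule, so 7 of 9 could not be compared with genes in general. For single genes 26 of 82 counts moved by over 1.5 times. Over all alternatives Fasl had 3 to 14 peaks, Ifng 1 to 8, Gzmb 1 to 6, Gzma 1 to 8, Prf1 2 to 6, Ccl5 2 to 5, Gzmm 0 to 5, Gzmk 0 to 3 and Nkg7 1 to 2. The alternative with only the shorter Gzmk transcripts was chosen after the data were seen. Leaving out a replicate was not possible with 1 library per group. No paired analysis was possible because each group has 1 library.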

Other observations

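Some peaks without the exact Tcf/Lef core held a sequence that differs from it at 1 base. Of the 33 peaks without the core, 20 had such a near copy within 100 bp of the summit, such as ACCAAAG, 49 bases from the summit of the strongest Fasl peak, GTCAAAG, 14 bases from the summit of the Nkg7 peak past the gene's end, and ATCAGAG, 28 bases from the summit of the Prf1 peak past the gene's end. Near copies are common, and together with exact ones they were present at 68.3% of the 41 peaks and 56.5% of all high-confidence peaks. The other 13 of the 33, among them the Fasl peak 13.9 kb past the gene's end, held neither.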
